A study of Arabidopsis thaliana with 12 samples.

Results

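The root cap of Arabidopsis thaliana was followed through 9 genes of cap identity, cap shedding and auxin-dependent cap development. They were taken by locus from the deposited counts of 32833 loci and were chosen for their known roles in the cap, with earlier results of these data known. The set held the NAC transcription factor genes FEZ (AT1G26870), SMB (AT1G79580), BRN1 (AT1G33280) and BRN2 (AT4G10350), the wall enzyme genes RCPG (AT1G65570), CEL5 (AT1G22880) and CEL3 (AT1G71380), and the auxin response factor genes ARF10 (AT2G28350) and ARF16 (AT4G30080). RNA came from roots of Col-0 seedlings aged 7 days, all of 1 genotype with no transgene named. Seedlings stood for 1 h on medium with 50 µM CNQX, which blocks ionotropic glutamate receptors in animals, or on mock medium. The last 130 µm or so of the root was then cut off on plates of the same kind. A piece of roughly 100 µm just above the cut was taken 30 min, 4 h, 14 h or 24 h later, giving 1 library per treatment and time. Uncut controls were 4 libraries, 2 per treatment, of about 100 µm of the intact tip after 14 h on CNQX or mock plates. The latest time is 24 h in the sample labels, which were followed here, and 16 h in the text on the whole series. Whether the plates used after excision held CNQX is not given in the sources used here.

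The root cap is the tissue that covers and protects the meristem at the end of the root. It has a central columella, which senses gravity, and a flanking lateral root cap, and its outer layers are renewed by stem cells and shed at the surface. FEZ promotes the cap-forming divisions of the stem cells, SMB restrains those divisions and promotes cap differentiation, and BRN1 and BRN2 act with SMB in cap maturation and detachment. RCPG is a root cap polygalacturonase, an enzyme that cuts pectin, and CEL5 and CEL3 are cellulases linked to the sloughing of cap cells. ARF10 and ARF16 are repressing auxin response factors that limit the distal stem cells and promote columella differentiation, and their transcripts are targets of the microRNA miR160.

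The tissue collected after excision came from above the cut, whereas the uncut tissue was the tip itself. How much of the cap the tissue above the cut still held was not measured. Excision and position along the root therefore cannot be told apart in these comparisons. In such bulk samples, fewer cells of a type and less RNA per cell cannot be told apart either.

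The sequences that tie ARF10 and ARF16 to miR160 and the start regions of RCPG and CEL5 are shown because the results below set these genes side by side. They were read from the RefSeq TAIR10.1 genome, the submitters' processing notes naming TAIR10. In that annotation SMB spans chr1:29940803-29943713, BRN1 chr1:12072611-12073965, BRN2 chr4:6415120-6416961 and FEZ chr1:9312936-9315122. RCPG spans chr1:24373874-24375895, CEL5 chr1:8095449-8097790, CEL3 chr1:26899765-26901976, ARF10 chr2:12113889-12116957 and ARF16 chr4:14703065-14706354. The mature miR160 sequence was the same at MIR160A (chr2:16340282-16340302, plus strand), MIR160B (chr4:9888986-9889006, plus strand) and MIR160C (chr5:19009158-19009178, minus strand). Capitals mark the seed, bases 2 to 8, in the miRNA and the bases not complementary to it in the sites, G facing U counting as not complementary. All 3 sites lie in coding sequence.
miR160: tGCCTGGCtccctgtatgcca
ARF10 site: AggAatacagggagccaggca
ARF16 site: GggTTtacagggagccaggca
ARF17 site: tggcatGcagggagccaggca
The ARF10 site (chr2:12115741-12115761, plus strand) has 2 such bases and the ARF16 site (chr4:14704141-14704161, minus strand) has 3, all at the end that faces the 3′ end of the miRNA. The site of ARF17, another gene of the group (chr1:29274189-29274209, plus strand), has 1. A search of the coding sequences of 27444 loci, allowing 3 mismatches, found these 3 loci and no other.

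The start regions of RCPG (chr1:24375846-24376145, minus strand) and CEL5 (chr1:8095199-8095498, plus strand) run from 250 bases before to 50 bases after the annotated start. Capitals mark the short core letters often found in NAC binding sites, CGTG and CGTA, on either strand. Where they stand next to each other the matches overlap, as in CACGTG or TACGTA.
RCPG: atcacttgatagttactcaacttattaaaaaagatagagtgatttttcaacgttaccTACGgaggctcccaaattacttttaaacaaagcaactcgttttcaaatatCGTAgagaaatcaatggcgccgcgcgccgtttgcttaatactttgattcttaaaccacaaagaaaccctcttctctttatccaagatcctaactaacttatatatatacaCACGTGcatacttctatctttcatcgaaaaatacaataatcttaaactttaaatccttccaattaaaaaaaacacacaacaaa
CEL5: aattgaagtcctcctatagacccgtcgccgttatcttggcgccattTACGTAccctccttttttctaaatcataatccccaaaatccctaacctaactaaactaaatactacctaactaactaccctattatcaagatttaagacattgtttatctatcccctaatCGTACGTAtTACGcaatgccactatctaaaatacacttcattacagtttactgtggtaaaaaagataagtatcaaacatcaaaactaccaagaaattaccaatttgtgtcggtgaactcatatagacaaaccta
The RCPG region held 2 matches of CGTG and 2 of CGTA over both strands, and the CEL5 region held 0 and 6. Of the regions of 27443 protein-coding genes, 52.68% held CGTG and 58.15% held CGTA, against 5 and 7 of the 9 cap genes. The SMB region held no match of either. These letters are common, and a match is a description of the sequence only.

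The libraries held 1575446 to 3302325 counts (median 2122122). Levels are given as CPM, counts scaled to library size with TMM factors, and the detection floor of 3 counts corresponded to 0.875 to 1.91 CPM. Reads that aligned to more than 1 place made up 37.6% of reads in the mock 24 h library and 53.3% to 65.3% in the other 11. A second point bears on the cap genes directly: in both treatments the uncut library numbered 2 had higher levels of 7 of the 9 genes than the library numbered 1. For FEZ and ARF10 the library numbered 1 was higher in both. The part of this in the results was not tested. SMB, a defining gene of the cap, was present in all 4 uncut libraries, with 11 to 36 counts.

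In uncut tips the cap genes stood at low to moderate levels. Per kilobase of exon, CEL5 was the highest, at 26.0 ± 7.50 CPM per kb (SD, n = 4), followed by ARF16 at 20.5 ± 3.38. RCPG followed at 15.1 ± 21.0 CPM per kb, with a spread larger than its mean. BRN1 stood at 8.05 ± 6.69, ARF10 at 5.04 ± 2.36 and SMB at 4.16 ± 2.70 CPM per kb. BRN2 at 2.88 ± 0.918, FEZ at 2.73 ± 2.03 and CEL3 at 1.45 ± 1.35 CPM per kb were the lowest. In this order the ranges of every pair of neighbours overlapped, while CEL5 and CEL3, the first and the last, had separate ranges. RCPG spanned 1.30 to 46.1 CPM per kb and overlapped all the others. The coding sequences of CEL3 and CEL5 were identical at 81.98% of aligned bases and those of BRN1 and BRN2 at 82.62%, with longest shared runs of 23 and 24 bases. None of the 9 genes overlaps another annotated gene.

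**Figure D1:**
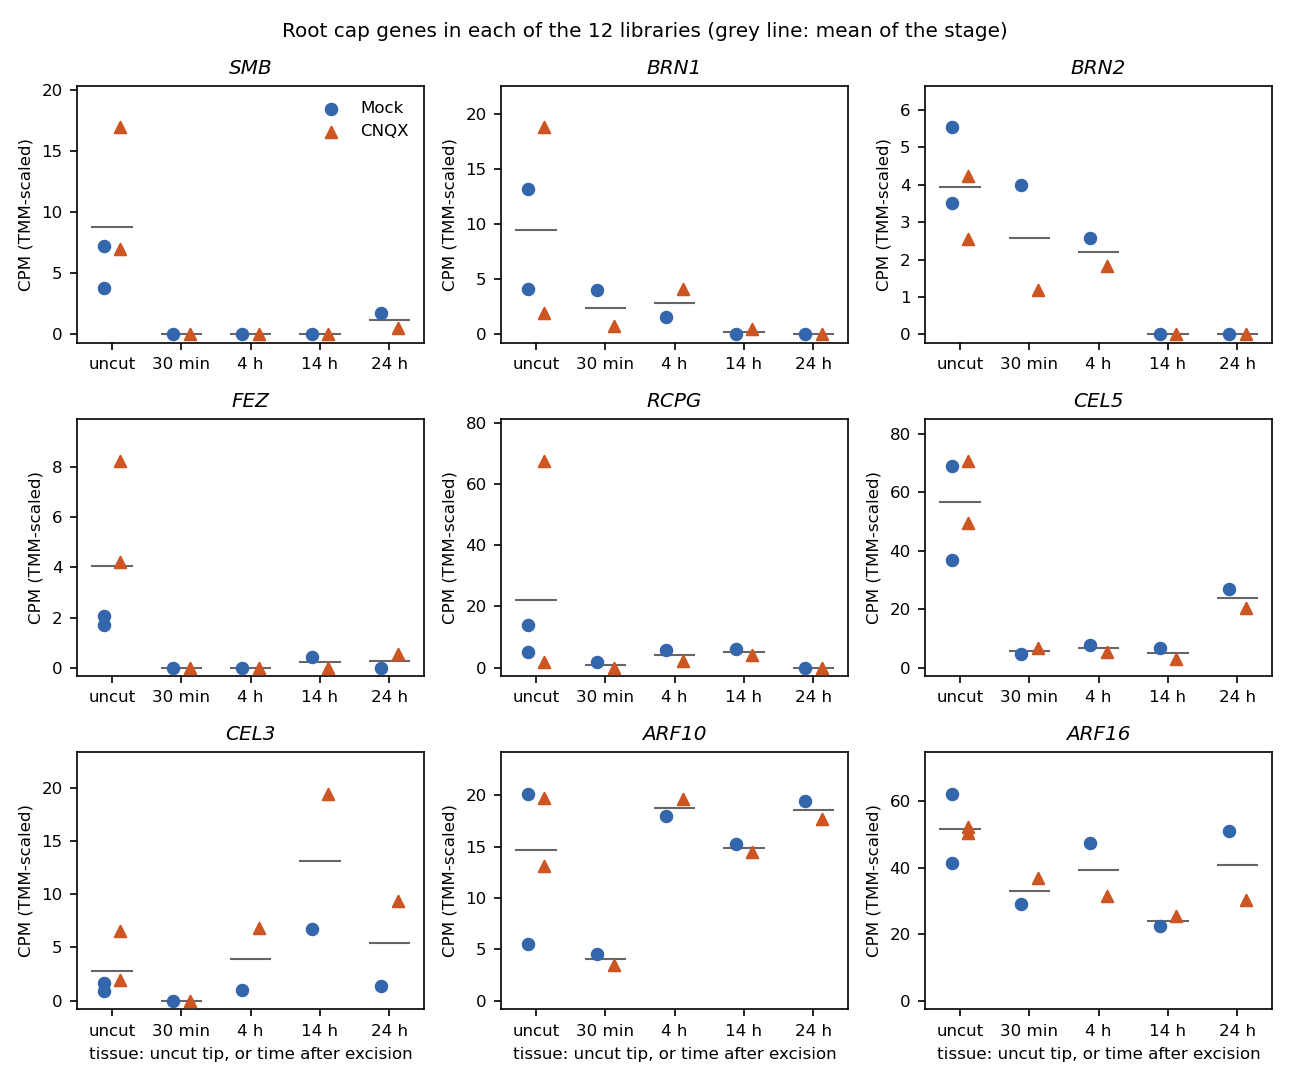
Level of each of the 9 cap genes in TMM-scaled CPM (vertical axis, linear, scaled per gene) in uncut tips and at each time after excision (horizontal axis); each point is 1 library, circles mock and triangles CNQX, and the grey line is the mean of the stage. SMB and FEZ are at or near 0 at every time after excision, BRN1 and BRN2 reach 0 at the later times, CEL5 is highest after excision at 24 h and CEL3 at 14 h.

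After excision, 4 of the 9 cap genes fell against uncut tips (SMB, BRN1, RCPG and CEL5) and none rose, taking the mean of the 4 times with both treatments averaged. The test covered 7 of the 9, since BRN2 and FEZ had too few counts to pass the filter. Of all 16820 genes tested, 25.5% were called, 11.9% lower and 13.6% higher. The median log2 change of the 7 cap genes was -2.79, against 0.02 for all genes tested. SMB and BRN1 reached 10 counts only in uncut tips, so passing the filter already asked for a higher level there. The number called, the median and the tests of SMB and BRN1 against uncut tips are therefore descriptions. Of the other tested genes, RCPG and CEL5 had -4.38 and -2.79, and CEL3, ARF16 and ARF10 had -0.68, -0.62 and -0.28. Separate ranges, with every library after excision below every uncut library, were found for SMB and CEL5 among the 7 tested genes and for 5.7% of all genes tested, with 4.89% separate in the other direction. FEZ, not tested, had separate ranges too. At single times and late against early the share over all genes was not counted, so separate ranges there are a description.

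The identity gene SMB was the most strongly lowered of the tested cap genes. It had 13 and 17 counts in the mock uncut libraries and 11 and 36 in the CNQX uncut libraries, or 3.79 to 16.9 CPM. It had 0 counts in all 6 libraries of 30 min, 4 h and 14 h. At 24 h it had 5 counts in mock and 1 in CNQX. Every library after excision lay below every uncut library. Over the 4 times SMB fell by 6.19 ± 0.86 (SE) on the log2 scale (adjusted p = 0.00155, edgeR quasi-likelihood test), and it passed in all 12 fits that left out 1 library each. SMB entered the test only through its uncut counts, so its test result and these fits describe the fall and are no separate support for it. On summed counts the level after excision was 23.7-fold lower, with a 95% interval of 10.4 to 66.6 that covers counting error only.

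FEZ, which acts earlier in the cap lineage as the promoter of stem cell divisions, had 7 and 4 counts in the mock and 13 and 9 in the CNQX uncut libraries. After excision it had 0 counts at 30 min and 4 h, 1 count at 14 h in mock and 1 count at 24 h in CNQX. All 8 libraries after excision were below all 4 uncut libraries, and the summed level was 30.5-fold lower (95% interval 7.80 to 262). Without the filter on low counts, where FEZ could be tested, it fell by 4.82 ± 1.18 (adjusted p = 0.000554, edgeR). That fit can give far lower p than the filtered one, as for RCPG at 30 min (adjusted p = 1.15e-05 against 0.084, edgeR). Its p for FEZ is therefore not on the scale of those for the tested genes.

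BRN1 and BRN2, the later-acting partners of SMB, followed another course in time. BRN1 had 14 and 31 counts in the mock and 3 and 40 in the CNQX uncut libraries. In mock it had 7 counts at 30 min, 3 at 4 h and 0 at both 14 h and 24 h. With CNQX it had 2, 9, 1 and 0 counts at the 4 times. BRN1 was thus still detected at 30 min and 4 h, with 2 of the 4 libraries inside the uncut range in CPM and 2 below it, and was at 0 to 1 count later. Like SMB, BRN1 entered the test only through its uncut counts, so its test against uncut tips is a description. Over the 4 times it fell by 4.06 ± 0.87 (adjusted p = 0.00712), but without the CNQX uncut library 2 it was not called (-2.88, adjusted p = 0.0773).

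BRN2 had 12 and 13 counts in the mock and 4 and 9 in the CNQX uncut libraries. It had 7 counts at 30 min and 5 at 4 h in mock, and 3 and 4 with CNQX. In all 4 libraries of 14 h and 24 h it had 0 counts. In CPM the early libraries spanned 1.18 to 3.99 and the uncut tips 2.54 to 5.53, so these overlapped, while the late libraries lay below both. Over the 4 times the summed level was 3.70-fold lower (95% interval 2.08 to 6.79). Without the filter BRN2 fell by 3.56 ± 0.97 (adjusted p = 0.00229, edgeR), with the same limit on its p as for FEZ.

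Among the shedding enzymes, RCPG had 17 and 33 counts in the mock uncut libraries and 3 and 144 in the CNQX uncut libraries. The last of these, 67.6 CPM, stood far above the next highest, 14.0 CPM. After excision it had 3, 11, 14 and 0 counts at 30 min, 4 h, 14 h and 24 h in mock, and 0, 5, 8 and 0 with CNQX. RCPG was low at 30 min, within the uncut range at 4 h and 14 h, and at 0 in both libraries at 24 h. It fell by 4.38 ± 0.87 over the 4 times (adjusted p = 0.00517). Without the CNQX uncut library 2 the value was -2.34 and was not called (adjusted p = 0.092).

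CEL5 gave the most counts of the shedding genes and the firmest result. It had 126 and 162 counts in the mock and 78 and 151 in the CNQX uncut libraries, or 36.8 to 70.9 CPM. In mock it had 4.56 CPM at 30 min, 7.71 at 4 h, 6.77 at 14 h and 27.1 at 24 h. With CNQX it had 6.66, 5.46, 2.99 and 20.4 CPM at the same times. All libraries after excision lay below the uncut tips, and both 24 h libraries lay above the other 6. CEL5 fell by 2.79 ± 0.29 over the 4 times (adjusted p = 0.000165) and passed in all 12 fits that left out 1 library. On summed counts it was 5.06-fold lower (95% interval 4.27 to 6.0).

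CEL3, the close relative of CEL5, did not follow it. CEL3 had 3 and 4 counts in the mock and 3 and 14 in the CNQX uncut libraries. It had 0 counts in both libraries at 30 min. In mock it then had 2, 16 and 4 counts at 4 h, 14 h and 24 h, and with CNQX it had 15, 39 and 17. Its highest levels, 6.77 CPM in mock and 19.4 CPM with CNQX, were both at 14 h, where CEL5 was low. Over the 4 times its fitted log2 change was -0.68 ± 0.56 (adjusted p = 0.403), whereas its summed counts were 2.10-fold higher (95% interval 1.33 to 3.44). The fit averages log levels over the 4 times, with the 2 libraries at 0 among them, so its sign and that of the summed counts differ.

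**Figure D2:**
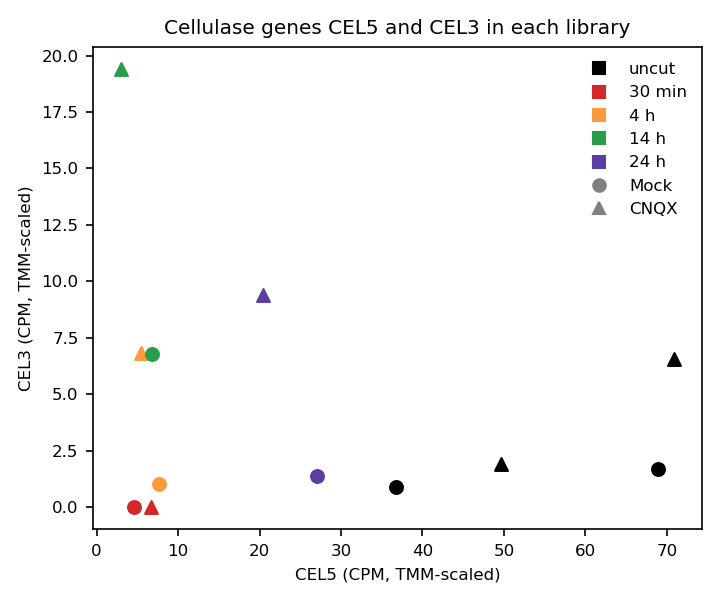
CEL5 (horizontal axis) against CEL3 (vertical axis) in TMM-scaled CPM, linear axes, 1 point per library, colours for uncut tips and times, circles mock and triangles CNQX. The uncut tips have 36.8 to 70.9 CPM of CEL5 with 0.875 to 6.57 of CEL3, and the CNQX 14 h library has 2.99 CPM of CEL5 with 19.4 of CEL3.

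The miR160 targets ARF10 and ARF16 did not pass the test over the 4 times, though each had libraries below every uncut tip. ARF16 had 41.4 and 62.2 CPM in the mock and 50.3 and 52.1 in the CNQX uncut libraries. In mock it had 29.0, 47.3, 22.4 and 51.0 CPM at 30 min, 4 h, 14 h and 24 h, and with CNQX 36.8, 31.4, 25.4 and 30.3. The 4 h and 24 h mock libraries lay inside the uncut range and the other 6 lay below it. The fitted log2 change over the 4 times was -0.62 ± 0.25 and did not pass (adjusted p = 0.0815).

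ARF10 had 69 and 13 counts in the mock and 31 and 28 in the CNQX uncut libraries, where the lowest level was 5.53 CPM and the other 3 were 13.1 CPM or more. It had 4.56 CPM in mock and 3.53 with CNQX at 30 min, below all uncut tips. At 4 h, 14 h and 24 h it had 18.0, 15.2 and 19.4 CPM in mock and 19.6, 14.4 and 17.7 with CNQX, all inside the uncut range. The change over the 4 times was -0.28 ± 0.36 (adjusted p = 0.602). Their relative ARF17 had 1 to 26 counts per library and a log2 change of 0.22 ± 0.68 (adjusted p = 0.858). The 3 MIR160 loci had 0 to 2 counts per library, under the floor. These are counts of the annotated loci of 85 to 89 bases, and the level of the mature miRNA was not measured.

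**Figure D3:**
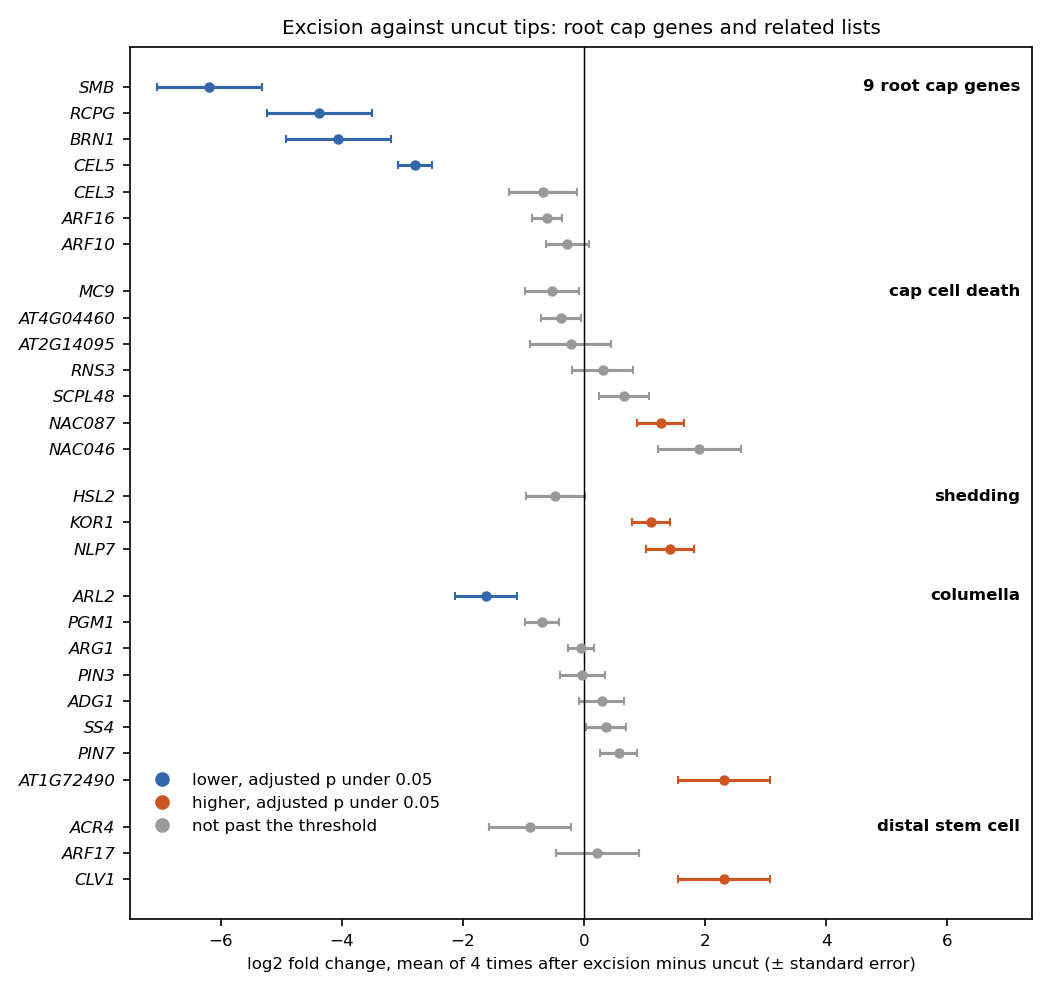
Log2 fold change of the mean of the 4 times after excision minus uncut tips (horizontal axis, points with standard errors, 12 libraries) for the 7 tested cap genes and the tested genes of 4 related lists. Blue genes are lower and orange genes higher with an adjusted p under 0.05; SMB, RCPG, BRN1 and CEL5 are the lowest of the genes shown, from -6.19 to -2.79.

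By single times, 2 of the 7 tested cap genes were lower than in uncut tips at 30 min, 2 at 4 h, 3 at 14 h and 3 at 24 h, and CEL3 was higher at 14 h. At 30 min, 4.43% of all genes were called, 1.2% lower and 3.23% higher. CEL5 fell by 3.26 ± 0.50 at 30 min (adjusted p = 0.0037), a call lost without the mock 30 min library (0.122). SMB, with no count, was at least 11.7-fold lower against 3 counts over the group (adjusted p = 0.039). The SMB call at 30 min passed in 4 of the 12 fits that left out 1 library. It was lost without any one of the uncut, 30 min or 14 h libraries (adjusted p = 0.0505 to 0.464). The other tested genes did not pass: RCPG was 29.8-fold lower (95% interval 10.1 to 146, adjusted p = 0.084), CEL3 at least 3.64-fold lower (0.0672) and ARF10 3.77-fold lower (2.27 to 6.65, adjusted p = 0.0936). The ranges of these 3 were separate from those of uncut tips, and the share of all genes with such ranges at 30 min was not counted. With no filter on low counts all 3 were called at 30 min (adjusted p = 1.15e-05, 0.0207 and 0.042), and RCPG was called by DESeq2 too (0.0085).

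At 4 h, 2.97% of all genes were called, 0.386% lower and 2.59% higher. CEL5 fell by 3.11 ± 0.49 (adjusted p = 0.00701), a call lost without the CNQX 4 h library (0.152). SMB was at least 11.2-fold lower (adjusted p = 0.048) and passed in 2 of 12 fits, those without a 24 h library (in the others, adjusted p = 0.0515 to 0.606). RCPG, 5.38-fold lower on summed counts (95% interval 3.23 to 9.60, adjusted p = 0.287), was called, of the settings tried, only with no filter (0.0178). BRN1 had a log2 value of -1.72 ± 1.09 (adjusted p = 0.422) and ARF10 of 0.37 ± 0.49 (0.717).

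At 14 h, 15.7% of all genes were called, 2.5% lower and 13.2% higher. CEL5 fell by 3.54 ± 0.51 (adjusted p = 0.000579), in all 12 fits. SMB was at least 11.8-fold lower (adjusted p = 0.0137), lost without either 14 h library (0.0853 to 0.314). BRN1, with 1 count left, was 40.6-fold lower (95% interval 7.10 to 1622, adjusted p = 0.0444), lost without the number 2 uncut library of either treatment or without either 14 h library (0.0938 to 0.392). CEL3 rose by 2.27 ± 0.70 (adjusted p = 0.0472), with both libraries above all uncut tips and summed counts 4.97-fold higher (95% interval 3.02 to 8.39). The CEL3 call passed in 3 of 12 fits, those without CNQX uncut library 2 or without either 24 h library (in the others, adjusted p = 0.0503 to 0.488). It was also lost with DESeq2 (0.0849) and without organelle loci (0.0517). RCPG at 14 h was called, of the settings tried, only with no filter (-1.94, adjusted p = 0.0288). ARF16, with both libraries below all uncut tips, was 2.12-fold lower on summed counts (95% interval 1.71 to 2.65) and did not pass (-1.10 ± 0.38, adjusted p = 0.0669). For the separate ranges of CEL3 and ARF16 at 14 h, the share over all genes was not counted.

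At 24 h, 33.4% of all genes were called, 12.1% lower and 21.3% higher. RCPG was at least 32.5-fold lower (adjusted p = 0.00912) and BRN1 at least 14.5-fold lower (0.0135), both with no count. Both calls were lost without the mock 24 h library (adjusted p = 0.134 and 0.128), where no cap gene was called. CEL5 fell by 1.26 ± 0.43 (adjusted p = 0.0372), a 2.23-fold lower level on summed counts (95% interval 1.82 to 2.75). This call was lost without the number 2 uncut library of either treatment or without either 24 h library (0.062 to 0.230). SMB, with 6 counts in all, was 6.35-fold lower (95% interval 2.79 to 17.8) and just missed the threshold (-2.90 ± 1.01, adjusted p = 0.0502). It was called with RLE factors (0.0492), without organelle loci (0.0436) and with no filter (0.027), and in 3 of the 10 fits without 1 library in which it was tested.

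Within the tissue above the wound, the late libraries (14 h and 24 h) were set against the early ones (30 min and 4 h) to see whether cap genes came back. CEL3 rose, by 4.31 ± 0.94 (adjusted p = 0.00803), the only cap gene of the 6 that could be fitted to pass, where 19.9% of all genes were called, 6.74% lower and 13.2% higher. Its call was lost without the CNQX 30 min library (adjusted p = 0.0929). On summed counts CEL3 was 4.17-fold higher late (95% interval 2.44 to 7.52). CEL5 had a late minus early value of 0.78 ± 0.39 (adjusted p = 0.186). Its early libraries spanned 4.56 to 7.71 CPM. At 14 h CEL5 had 6.77 CPM in mock, inside that range, and 2.99 with CNQX, below it. Both 24 h libraries lay above that range. ARF10 had 0.93 ± 0.43 (adjusted p = 0.153), ARF16 -0.21 ± 0.29 (0.666) and RCPG -1.77 ± 1.61 (0.49).

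The BRN genes stood on the other side. BRN1 had 21 counts in the 4 early libraries and 1 in the 4 late ones, 22.5-fold lower (95% interval 3.62 to 932), and missed the threshold (-4.36 ± 1.45, adjusted p = 0.0537). BRN1 was called with DESeq2 (0.0174) and with no filter (0.0019), and in 5 of the 12 fits that left out 1 library. BRN2 had 19 counts early and 0 late, at least 6.79-fold lower. It was called in the fit without the filter (adjusted p = 0.00366), and in 8 of the 11 fits without 1 library in which it had enough counts to be tested. For both, every late library was below every early one, and the share of all genes with such ranges was not counted. SMB could not be fitted, having 0 counts early and 6 late, at least 1.86-fold higher. FEZ had 0 counts early and 2 late, both under the floor.

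CNQX did not change any cap gene at the threshold used, and with edgeR no gene of the 16820 was called in any CNQX comparison, 0% in each. At an unadjusted p under 0.05, edgeR had 629 genes (3.74%) in uncut tips and 327 (1.94%) after excision, and DESeq2 had 481 and 245, with 0 called in both. In uncut tips none of the 7 tested cap genes was among them. RCPG had the highest value, 1.90 ± 1.09 (adjusted p = 0.978), from 3 and 144 counts with CNQX and 17 and 33 in mock, so that the mock values lay between those of CNQX. Without the CNQX uncut library 2 its value turned to -2.31. CEL3 had 1.76 ± 0.94, SMB 1.14 ± 0.91 and CEL5 0.20 ± 0.46. FEZ, not tested, had 8.27 and 4.23 CPM with CNQX and 2.04 and 1.70 in mock, and CEL3 had 1.91 and 6.57 against 0.875 and 1.70. Of the cap genes, only FEZ and CEL3 had uncut ranges that did not overlap between treatments. With 2 libraries per treatment such separation arises easily, and its share over all genes was not counted, so it is a description.

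After excision, CEL3 was the only tested cap gene with an unadjusted p under 0.05 for CNQX. It had 6.83 CPM with CNQX and 1.03 in mock at 4 h, 19.4 and 6.77 at 14 h, and 9.38 and 1.39 at 24 h. CNQX was the higher at each of these 3 times, and both treatments had 0 counts at 30 min. The fitted value was 2.16 ± 0.71 (edgeR quasi-likelihood test, adjusted p = 1 over all genes tested), so it failed the correction. For no tested cap gene were the ranges of the 4 CNQX and 4 mock libraries after excision separate, as they were, lower or higher, for 0.529% and 0.256% of all genes. RCPG had the opposite order, 3, 11 and 14 counts in mock against 0, 5 and 8 with CNQX before both reached 0 at 24 h, at -1.26 ± 1.14 (adjusted p = 1). CEL5 had -0.37 ± 0.39, ARF16 -0.21 ± 0.30, ARF10 -0.09 ± 0.42 and BRN1 0.01 ± 0.94. The standard errors, 1.47 for SMB, leave a CNQX effect of several-fold on the NAC genes below what could be detected at this depth.

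The difference of the CNQX effects between tissue after excision and uncut tips was not called for any cap gene (RCPG -3.16 ± 1.58, adjusted p = 1). In that comparison 390 genes (2.32%) had an unadjusted p under 0.05 with edgeR and 314 with DESeq2, RCPG among the latter, and none was called by either. The difference between the late and early CNQX effects was not called for any cap gene either. There 1203 genes (7.15%) had an unadjusted p under 0.05 with edgeR and 1013 with DESeq2, which called 3 genes, none of them a cap gene.

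In 4 lists of other genes of cap biology, 6 of 21 tested genes were called after excision (28.6%), close to the 25.5% of all genes. Among the 21, CLV1, AT1G72490 and NAC046 reached 10 counts in at most 1 uncut library. Passing the filter leaned on tissue after excision for them, so this share is a description. Of 9 genes of cell death in the lateral root cap, 7 were tested after excision, 1 rose and none fell, with a median of 0.30. The one that rose was NAC087, a NAC factor of cap cell death (1.27 ± 0.39, adjusted p = 0.0302), and its relative NAC046 had 1.91 ± 0.68 (0.055). The metacaspase gene MC9 had -0.52 ± 0.44 (0.412) and the carboxypeptidase gene SCPL48 0.66 ± 0.42 (0.265). At 24 h alone 3 of the 7 were higher than in uncut tips, where 21.3% of all genes were: NAC087 by 2.70 ± 0.48 (adjusted p = 0.0011), NAC046 by 2.99 ± 0.82 (0.0142) and SCPL48 by 1.94 ± 0.53 (0.0139). NAC046 reached 10 counts only after excision. Passing the filter already asked for a higher level there, so its tests against uncut tips are descriptions. SCPL48 was also higher at 14 h (1.81 ± 0.53, 0.0343) and rose from early to late (2.44 ± 0.48, 0.00422). Of 9 genes of shedding signals and wall loosening, 3 were tested and 2 rose, with a median of 1.10. These were KOR1, a membrane-bound cellulase of cellulose synthesis (1.10 ± 0.31, adjusted p = 0.0218), and NLP7, a nitrate-response factor (1.42 ± 0.40, 0.0227). The receptor gene HSL2 had -0.48 ± 0.49 (0.507). The polygalacturonase genes ADPG1 and ADPG2, known from organ abscission, had 0 counts in all 12 libraries, unlike RCPG.

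Of 11 genes of columella gravity sensing and starch, 8 were tested, 1 rose and 1 fell, with a median of 0.13. ARL2, a DnaJ-domain protein of gravitropism, fell by 1.62 ± 0.51 (adjusted p = 0.0357), and AT1G72490 rose by 2.31 ± 0.75 (0.0395). The starch gene PGM1 had -0.70 ± 0.29 (0.0897) and the auxin transporter gene PIN7 0.57 ± 0.31 (0.185). Of 8 genes of distal stem cell control, 3 were tested and 1 rose, the receptor kinase gene CLV1 (2.31 ± 0.75, adjusted p = 0.0397), with a median of 0.22. The receptor kinase gene ACR4 had -0.90 ± 0.68 (0.354), and the peptide gene CLE40 had 0 counts throughout. WOX5, which marks the quiescent centre next to the columella stem cells, was not tested. It had 0 to 2 counts in uncut tips, 0 to 3 at 30 min and 4 h, and 7, 16, 9 and 8 in the late libraries. Each of these calls was lost without some of the libraries: of the 12 fits that left out 1 library, KOR1 passed in 9, NLP7 in 8, ARL2 in 6, NAC087 and AT1G72490 in 5 and CLV1 in 2, with adjusted p up to 0.162. ARL2, KOR1 and SCPL48 each overlap a gene on the opposite strand, as do several markers of other root cells described below. The strand setting of the counting is not given in the sources used here.

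Of 4 cap cuticle genes, which build the cutin layer of young caps, 2 were tested. GPAT4, an acyltransferase of cutin synthesis, had 0 counts in all uncut tips and 27, 91, 8 and 12 in mock 14 h, mock 24 h, CNQX 14 h and CNQX 24 h. In the early libraries it had 1 count, in mock 30 min. Both GPAT4 (adjusted p = 0.00173, edgeR) and GPAT8 (0.0395) rose from early to late, GPAT8 from 0 to 2 counts per library to 2 to 18. Only late libraries held enough counts of either gene to pass the filter. Passing it already asked for a higher level there, so the late against early tests of GPAT4 and GPAT8 are descriptions. These genes also serve in other tissues with cutin or suberin, so this is no measure of the cap.

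Markers of other root cells changed over the same libraries, and their part in the cap gene results was not tested. The 6 markers of dividing cells all fell after excision and summed to 179 to 219 CPM in uncut tips, 5.46 to 43.9 at 30 min and 4 h, and 26.4 to 121 later. The 8 Casparian strip markers, which mark the differentiated endodermis, summed to 3.82 to 8.94 CPM in uncut tips, 4.56 to 5.49 at 30 min, 8.22 to 26.9 at 4 h, 259 to 552 at 14 h and 72.2 to 187 at 24 h. At 14 h, where 13.2% of all genes were higher than in uncut tips, 7 of the 7 tested rose. The 7 xylem markers summed to 5.73 to 42.3 CPM in uncut tips and 144 to 316 at 14 h, where 5 of the 5 tested rose. The 7 root hair markers summed to 17.8 to 28.5 CPM in uncut tips and 274 to 450 at 14 h, where 6 of the 7 tested rose. CASP2 and CASP5 were at 0 in all uncut tips, as was PRP3 of the root hair list. The 9 cap genes together summed to 118 to 255 CPM in uncut tips and to 47.8 to 101 after excision, most of the latter from ARF16, CEL5 and ARF10.

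**Figure D4:**
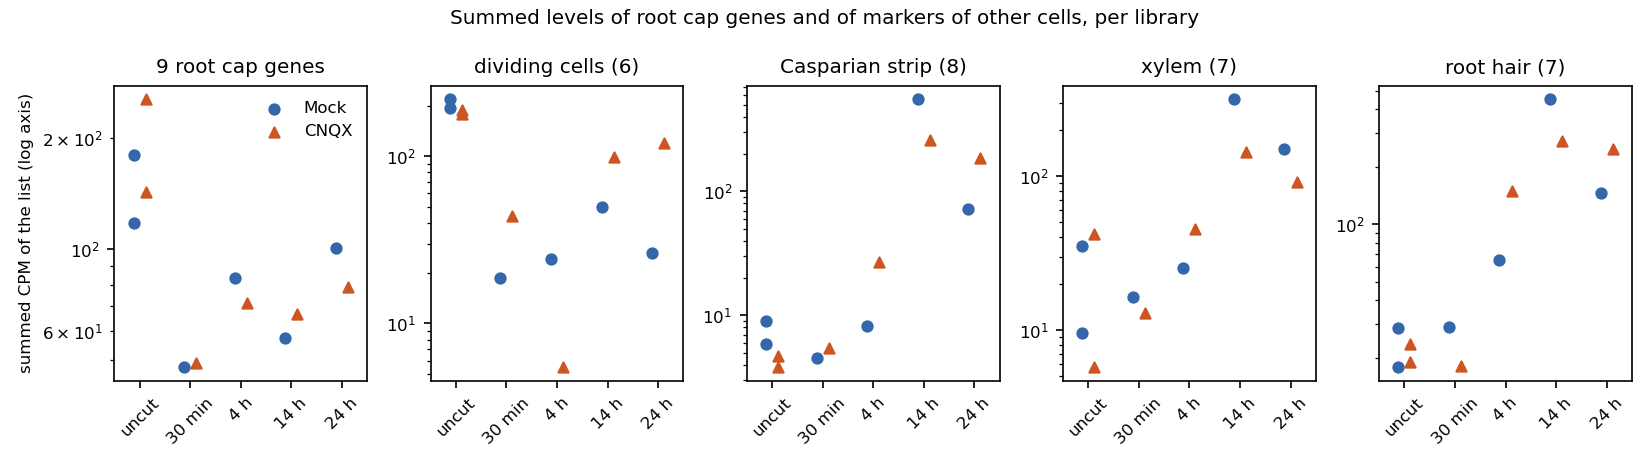
Summed TMM-scaled CPM (vertical axis, log scale, scaled per list) of the 9 cap genes and of 4 marker lists in uncut tips and at each time after excision (horizontal axis), 1 point per library, circles mock and triangles CNQX. The cap genes and the dividing cell markers are highest in uncut tips, and the Casparian strip, xylem and root hair markers are highest at 14 h.

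The genes with the most similar profiles were looked up for 4 cap genes, by Pearson's r of log2 CPM over the 12 libraries, among genes with a mean log2 CPM of at least 2. The libraries share the contrast of uncut against cut tissue, so these values carry no p. For SMB they were AT5G43920 (r = 0.95), the cap gene CEL5 (0.94), AT1G50060 (0.93) and AT4G16540 (0.93). AT1G50060 had 22.1 ± 10.9 CPM in uncut tips and 0.254 ± 0.387 after excision (SD, n = 4 and 8). For CEL5 they were YY1 (0.94), AT1G34110 (0.93), AT1G47970 (0.93) and RFC3 (0.92). For RCPG they were AT4G23840 (0.89), SARK (0.89), AT5G20580 (0.89) and AT3G10190 (0.85), and for ARF16 they were EMB2766 (0.90), AT3G09190 (0.90), ACA4 (0.88) and CRT1 (0.87). Among the cap genes themselves r was 0.75 for BRN1 and RCPG, -0.09 for CEL5 and CEL3, and -0.01 for ARF10 and ARF16.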

How the data were processed

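RNA-seq counts were analysed for 12 libraries. Each deposited file gives unnormalized whole counts for every locus, and the authors used HISAT2, DESeq2 and TAIR10, per the submitters' processing notes; the counter, strand setting and versions were not given in the sources used here. RNA was amplified with Nugen kits, per the labels' protocols. Loci were matched to RefSeq TAIR10.1 (32548 of 32833). Counting entries that name no gene were left out; they held 18.4% to 29.4% of reads (no feature), 37.6% to 65.3% (not unique), 3.90% to 7.42% (not aligned) and 0.0403% to 0.107% (ambiguous).

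The test was run in edgeR 4.0.16 under R 4.3.3 (filterByExpr, minimum count 10, TMM, quasi-likelihood F test) over all 12 libraries, with 7 coefficients (stage, CNQX effect in uncut and in cut tissue) and 5 residual degrees of freedom. The comparison of late with early CNQX effects used 8 coefficients and 4. Cut groups held 1 library each, assumed to vary like the rest. In the main fit the CNQX effect was taken as equal over the 4 times after excision, so its differences between times count as spread. Benjamini-Hochberg adjustment covered all 16820 genes tested, with a threshold of 0.05 for p. Standard errors are the size of the log2 change over the square root of F. Alternatives were DESeq2 1.42.0, RLE factors, no filter, organelle loci (8.55% to 18.2% of counts) left out, a replicate block and each library left out. Ratios of summed counts carry exact 95% Poisson intervals, which cover counting error only, as do floors. A fold against a group with no count is a bound against 3 counts over the group.

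The members and lists were chosen with earlier results of these data known. All 9 members are named, and from each list the up to 4 tested genes with the lowest p for excision. WOX5, CLE40, ADPG1, ADPG2, GPAT4, GPAT8, CASP2, CASP5, PRP3 and the MIR160 loci were named after their values were seen, as were the single-time values of SCPL48, NAC046 and NAC087. Beyond 2 sets of uncut roots per treatment, the labels do not say that libraries came from separate cultures, so p-values measure the spread between libraries, which may be technical. After excision that spread also holds any difference of the CNQX effect between times.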

Additional observations from a re-analysis of the deposited data

How the results depend on the processing

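Among 179 counts of called cap genes and levels set against the values reported, 141 kept their size and 38 moved. The 141 include every CNQX comparison, where no cap gene was called under any setting, and the levels in uncut tips. All 38 that moved were counts of calls against uncut tips or late against early, so 141 of 179 overstates how stable those calls were. Of 1142 comparisons of single cap genes 1011 kept direction and call. The number of cap genes called after excision was 4, and 4 to 6 when 1 library was left out, where BRN2 or FEZ passed the filter. At 30 min it was 2 (0 to 3), at 4 h 2 (0 to 2), at 14 h 4 (1 to 5), at 24 h 3 (0 to 5) and late against early 1 (1 to 3). With no filter on low counts it was 5 at 30 min, 5 at 24 h and 3 late against early, and DESeq2 called 2 late against early (BRN1 and CEL3); the cause was not tested. With 1 library left out, all genes called ran from 2542 to 5449 after excision (reported 4282), 76 to 1224 at 30 min (745), 33 to 971 at 4 h (500), 576 to 3281 at 14 h (2639), 1730 to 6352 at 24 h (5613) and 1389 to 4062 late against early (3348). With no filter they were 1740 at 30 min and 1421 at 4 h, and DESeq2 called 865 at 4 h. For CNQX, no filter gave 10, 10, 2 and 35 calls over all genes in the 4 comparisons, none of a cap gene.

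The replicate numbers pair only the uncut libraries, in 2 pairs, and the labels do not say that a number marks a shared batch. The deviations of the number 1 libraries correlated across 16820 genes (r = 0.357). With the replicate block, 2 cap genes were called after excision (CEL5 and SMB; BRN1 at -2.47 and RCPG at -2.27 were not), 1 at 4 h and 2 late against early, and 1 gene, no cap gene, for CNQX after excision. The block also ended the calls of SMB at 30 min (adjusted p = 0.0661) and 4 h (0.0664), BRN1 at 14 h (0.129), CEL5 at 24 h (0.125), and NAC087 (0.121) and CLV1 (0.197) after excision. It called ARF10 at 30 min (0.0339) and BRN1 late against early (0.0262), which the reported fit did not. Log2 values that changed sign under the block were CEL3 (0.15) and MC9 (0.11) after excision, ARF10 at 4 h (-0.12), 14 h (-0.46) and 24 h (-0.14), RCPG at 14 h (0.19), and for CNQX BRN1 (-0.11) and ARF16 (0.0096) in uncut tips and BRN1 in the difference (0.11). None of these was called under the block. ARF10 at 14 h turned to -0.00081 with no filter and to -0.042 without organelle loci, and under DESeq2 BRN1 turned to 0.087 in the CNQX difference and CEL3 to 0.073 in the late CNQX difference.

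Other values changed sign when 1 library was left out, with these lowest and highest log2 values, and none had been called. After excision they were ARF10 (-0.60 to 0.29), ARF17 (-0.69 to 0.57). At 4 h they were CEL3 (-0.21 to 0.84). At 14 h they were RCPG (-2.58 to 0.13), ARF10 (-0.29 to 0.58). For CNQX in uncut tips they were CEL5 (-0.23 to 0.71), BRN1 (-2.17 to 1.35), RCPG (-2.31 to 2.84), ARF10 (-0.31 to 1.52), ARF16 (-0.31 to 0.30). For CNQX after excision they were BRN1 (-1.18 to 1.59). For the difference of the CNQX effects they were BRN1 (-1.44 to 2.20), RCPG (-4.08 to 1.02), CEL3 (-0.17 to 1.60), ARF10 (-1.62 to 0.22), ARF16 (-0.51 to 0.093). For the late minus early CNQX effect they were CEL3 (-1.05 to 0.035), ARF10 (-0.30 to 0.24), ARF16 (-0.71 to 0.31).

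Depth is the main limit. BRN1, BRN2, FEZ, SMB and CEL3 had at most 40 counts in a library, so that 0 counts do not show absence, and each time after excision has 1 library per treatment. Lists held few tested genes. The fits without 1 time and treatment leave a lone library whose spread is taken from the others. For SMB the late against early comparison could not be fitted, and for SMB, BRN1, RCPG and CEL3 some fits without 1 library could not be fitted either. CPM on plain totals moved no mean level in uncut tips by more than 1 SD.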
